A study of Mus musculus with 12 samples.

Results

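Adipokines are proteins that fat cells release into the blood or into the surrounding tissue. The 8 genes described here, Lep, Adipoq, Retn, Apln, Agt, Cfd, Rbp4 and Nampt, were taken by name from the 23163 genes of a deposited count table, and all 8 were present and passed the filter on low counts in every comparison. The table holds 12 RNA sequencing libraries in 4 groups of 3. The groups are 2 fat depots, brown (brown adipose tissue, BAT) and subcutaneous white (sWAT), of mice held for 72 hours in cold (4 °C) or at thermoneutrality (30 °C), the temperature at which a mouse spends no extra energy on keeping warm. All groups come from male wild-type C57Bl/6 mice aged 8 to 12 weeks, 20 in all and 10 at each temperature, with no transgene, no deletion and no drug named. Each group has libraries 1, 2 and 3, called experiments in the sample titles. No label says whether a library is 1 animal or a pool, or whether BAT and sWAT of the same number share mice. The comparisons of tissues treat the libraries as independent, and the p-values measure the spread between these samples, which may be technical.

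The 8 proteins act in different ways. Leptin (Lep) reports the size of the fat stores to the brain through its receptor, adiponectin (Adipoq) is assembled into multimers in the fat cell and raises insulin sensitivity, resistin (Retn) opposes insulin action in mice, and apelin (Apln) is a peptide that acts on vessels and heart through the receptor Aplnr. Angiotensinogen (Agt) is the precursor that renin and angiotensin-converting enzyme cut into angiotensin, adipsin (Cfd) is the serine protease complement factor D that cleaves factor B, Rbp4 carries retinol in the blood, and Nampt makes nicotinamide mononucleotide in the salvage pathway of NAD and is also found outside cells under the name visfatin. BAT burns fat for heat through Ucp1, while sWAT mainly stores fat and gains heat-producing beige adipocytes in cold. Noradrenaline from sympathetic nerves drives heat production in cold and is known to lower leptin expression in fat.

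The libraries held 27117934 to 56243016 counts. The 3 sWAT thermoneutral libraries stood apart from the other 9 before any gene was compared. The 13 genes encoded in mitochondrial DNA took 0.181% to 0.307% of their counts, against 17.6% to 53.8% elsewhere, and 84 ribosomal protein genes took 7.18% to 8.14%, against 0.338% to 1.85%. Their log2 CPM (counts scaled to library size) climbed with the GC content of the transcript, by 0.88 to 1.46 per 10 percentage points, against −0.71 to 0.32 in the other 9. Because these are all the sWAT libraries at 30 °C, this composition cannot be told apart from temperature in any comparison that uses them. In BAT the libraries numbered 3 also differed from libraries 1 and 2, with a mitochondrial share of 53.8% in cold and 17.6% at thermoneutrality, and BAT results are given without them where they change. Leaving out both was a setting added after the data were seen. With it, 6509 of all genes passed the threshold used below for cold in BAT, in place of 1777. In sWAT at 4 °C library 1 differed from libraries 2 and 3. Its 12 brown and beige markers summed to 5220 CPM against 19500 and 17000, and its 10 skeletal muscle markers to 7380 against 20200 and 19900. Its 11 B and T lymphocyte markers summed to 526 CPM against 222 and 178. Defining genes of fat were high in every library, with 15 adipocyte genes summing to 7950 to 15200 CPM in sWAT at 30 °C, 25100 to 42800 in sWAT at 4 °C, 19200 to 21500 in BAT at 30 °C and 44400 to 58900 in BAT at 4 °C.

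The promoters of Lep, Adipoq and Agt are printed as examples. Lep is the member that passed the threshold used below for a fall in cold BAT. Adipoq, the fat cell hormone most often set beside it, was lower there too, without overlap, but missed that threshold. Agt is the member that passed it for a lower cold response in sWAT than in BAT. Each line gives the bases from 150 to 11 before the RefSeq start (build GRCm38.p6), on the strand of the gene, with the searched motifs in capitals.
Lep: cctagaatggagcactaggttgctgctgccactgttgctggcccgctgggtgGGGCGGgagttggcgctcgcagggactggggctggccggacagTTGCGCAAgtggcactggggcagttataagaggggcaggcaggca
Adipoq: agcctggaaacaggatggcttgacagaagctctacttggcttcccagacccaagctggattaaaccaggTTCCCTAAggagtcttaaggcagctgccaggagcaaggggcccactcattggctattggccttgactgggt
Agt: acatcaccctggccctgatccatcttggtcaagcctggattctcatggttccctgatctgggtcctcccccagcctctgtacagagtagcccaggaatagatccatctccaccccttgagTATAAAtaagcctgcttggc
The Lep window is chr6:29060071-29060210 on the plus strand, the Adipoq window chr16:23146386-23146525 on the plus strand and the Agt window chr8:124569717-124569856 on the minus strand. In Lep the capitals mark GGGCGG, the Sp1 motif, and TTGCGCAA, a palindromic match to TTNNGNAA, the motif of the C/EBP factors that drive fat cell genes. In Adipoq they mark a match to the C/EBP motif on the opposite strand. In Agt they mark a TATA box, TATAAA, 30 to 25 bases before the start.

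Both strands of the 250 bases before each start were searched, in 1 window per member and 2 for Rbp4, which has 2 starts in the table. Of the members, 3 of 8 members held TTNNGNAA (Lep, Adipoq and Rbp4), against 36.9% of 32841 promoters in the RefSeq table. TATAAA was found in 2 members (Agt and Rbp4), against 12.4% of promoters, and GGGCGG in 4 (Lep, Nampt, Rbp4 and Apln), against 32.7%. The AGGTCA element of nuclear receptors stood in 1 member (Nampt, background 14%) and the core ACGTG of hypoxia-inducible factors in 2 (Nampt and Rbp4, background 16.6%). The cyclic AMP response element TGACGTCA (background 1.55%) and the E-box CACGTG (background 6.02%), which contains ACGTG, were in none of these windows. The TATA box, Sp1 and hypoxia-inducible factor matches of Rbp4 stand in 1 of its 2 windows only, whereas the background counts single windows. A match describes letters only and shows no binding.

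**Figure D1:**
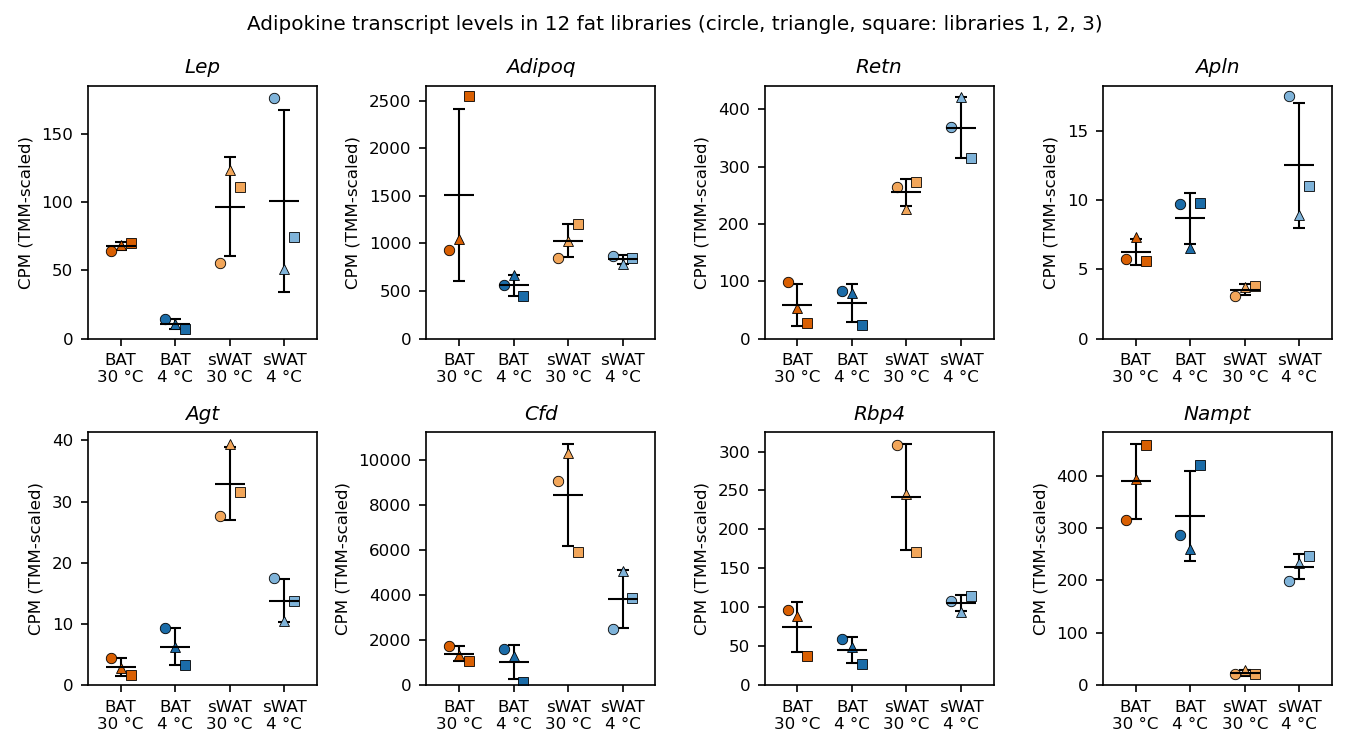
Level of each of the 8 adipokine genes in CPM scaled by TMM factors (linear y axis, a separate scale per gene) in BAT and sWAT at 30 °C and 4 °C. Points are libraries 1 (circle), 2 (triangle) and 3 (square), long bars the group mean and short bars 1 SD, with n = 3. Lep is lowest in BAT at 4 °C, at 7.09 to 14.5 CPM, and Nampt in sWAT at 30 °C, at 20.3 to 29.6 CPM.

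Levels between genes were compared as CPM per kilobase of the longest annotated transcript. Cfd stood first in each group, with 9150 ± 2450 CPM per kilobase in sWAT at 30 °C, 4140 ± 1400 in sWAT at 4 °C, 1500 ± 363 in BAT at 30 °C and 1100 ± 824 in BAT at 4 °C (SD, n = 3). Adipoq came next in each group, from 433 ± 84.3 in BAT at 4 °C to 1170 ± 699 in BAT at 30 °C. The Cfd and Adipoq libraries overlapped in both BAT groups and in neither sWAT group. In BAT the third place belonged to Nampt, at 85.9 ± 15.8 CPM per kilobase at 30 °C and 71.2 ± 19.0 at 4 °C, whereas in sWAT it belonged to Retn, at 224 ± 21.5 and 323 ± 46.4.

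At the lower end stood Apln in 3 groups and Agt in BAT at 30 °C. Apln was at 1.11 ± 0.128 CPM per kilobase in sWAT at 30 °C, and Agt and Apln overlapped with each other in both BAT groups and in cold sWAT. Lep was in the sixth place in 3 groups, at 20.8 ± 0.914 CPM per kilobase in BAT at 30 °C, 3.31 ± 1.14 in BAT at 4 °C and 30.9 ± 20.5 in sWAT at 4 °C, and in the fifth in sWAT at 30 °C, at 29.7 ± 11.2. Nampt moved most in the order, from the seventh place in sWAT at 30 °C (5.17 ± 1.18) to the fifth at 4 °C (50.0 ± 5.34), where it overlapped with Lep. Nampt, Retn and Rbp4 followed one another with overlaps in both BAT groups, Retn and Rbp4 overlapped in sWAT at 30 °C, Lep overlapped with Agt in BAT at 4 °C and in sWAT at 30 °C, and the neighbours not named here did not overlap.

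In the comparisons that follow, a change is a log2 fold change ± standard error (SE) from edgeR's quasi-likelihood test with 3 libraries per group, and it is called past a Benjamini-Hochberg adjusted p of 0.05 over all genes tested. In cold BAT, leptin RNA fell and no other member passed, so 1 of 8 was called, against 12.2% of 14612 genes (6.82% higher and 5.34% lower). At an unadjusted p under 0.05 there were 3 members, Lep, Adipoq and Agt. In cold sWAT, Nampt and Apln rose and Agt, Rbp4 and Cfd fell, so 5 of 8 were called, against 49.2% of 15731 genes (25.1% higher and 24.1% lower). The median log2 fold change of the members was −0.31 in BAT and −0.12 in sWAT, beside −0.04 and 0.00 over all genes. The share called among the members was thus 12.5% in BAT, close to the background, and 62.5% in sWAT.

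The difference of the 2 cold responses, sWAT minus BAT, was taken from a fit over all 12 libraries. It was called for Lep, Nampt and Apln, which were positive, and for Agt, which was negative, so for 4 of 8 members against 25.1% of 16365 genes (17.3% positive and 7.85% negative). The median was 0.80 for the members and 0.12 for all genes. With RLE scaling the median of all genes was −0.03, and 58.4% of called genes were positive in place of 68.7%. Upper quartile scaling moved the median of all genes in the BAT comparison to −0.20, with 41.5% of called genes higher in place of 56.0%.

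**Figure D2:**
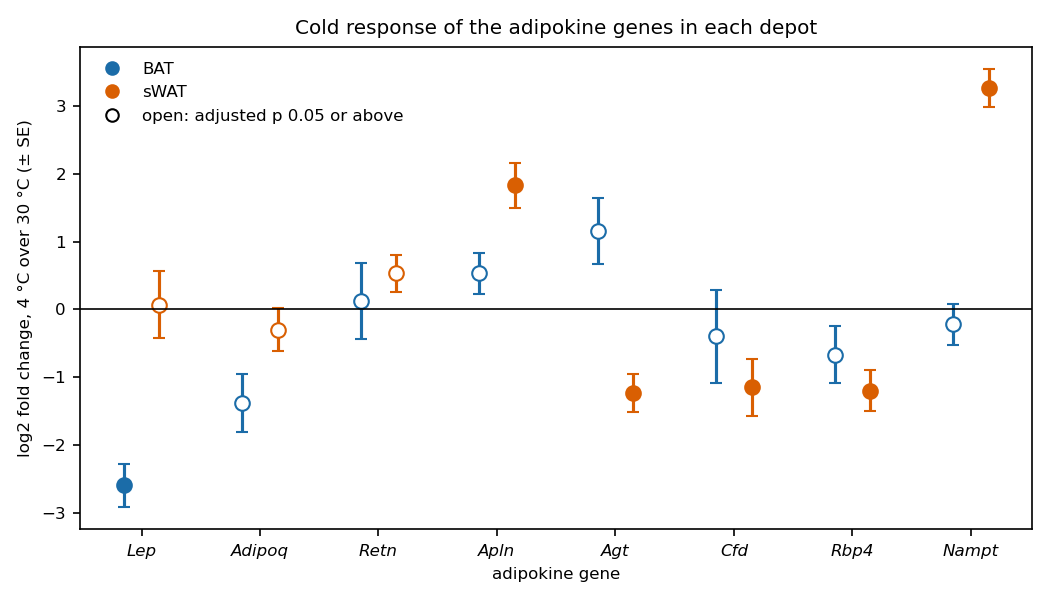
Log2 fold change (4 °C over 30 °C, linear y axis) of the 8 adipokine genes in BAT (blue) and sWAT (orange), each from 3 libraries against 3, with bars of 1 SE. Filled points passed an adjusted p of 0.05: Lep at −2.60 in BAT, and Apln at 1.83, Agt at −1.24, Cfd at −1.15, Rbp4 at −1.20 and Nampt at 3.27 in sWAT.

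Lep (ENSMUSG00000059201.12, mm10 chromosome 6, 29060220 to 29073877, plus strand) encodes leptin. In BAT it stood at 64.5, 69.0 and 70.1 CPM in thermoneutral libraries 1, 2 and 3 and at 14.5, 10.7 and 7.09 CPM in cold libraries 1, 2 and 3, from 211 to 356 counts in cold. Every cold library lay far below every thermoneutral one, and the thermoneutral libraries lay close together. The log2 fold change was −2.60 ± 0.32 (adjusted p = 0.00314), a 6.07-fold lower level. Without the libraries numbered 3 it was −2.35 (adjusted p = 1.2e-05).

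In sWAT Lep stood at 55.6, 124 and 111 CPM at thermoneutrality and at 177, 51.0 and 74.9 CPM in cold. Cold library 1, which differed from the other cold sWAT libraries as given above, was the highest of the 6. Cold library 2 was the lowest, so the groups overlapped. The log2 fold change was 0.07 ± 0.49 (adjusted p = 0.910), and without cold library 1 it was −0.62 (adjusted p = 0.164), so these libraries give no direction for Lep in sWAT. The response in sWAT was higher than that in BAT by 2.71 ± 0.62 on the log2 scale (adjusted p = 0.00803), and by 1.82 without sWAT cold library 1 (adjusted p = 0.0173).

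Between the tissues, Lep at 30 °C differed by −0.51 ± 0.43 (BAT over sWAT, adjusted p = 0.319). In cold its level in BAT was lower by −3.23 ± 0.47 on the log2 scale (adjusted p = 0.000455), or 9.37-fold. Without sWAT cold library 1 this was −2.34 (adjusted p = 0.0011).

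Adipoq (ENSMUSG00000022878.5, chromosome 16, 23146536 to 23158028, plus strand) encodes adiponectin. In BAT it stood at 933, 1050 and 2550 CPM in thermoneutral libraries 1, 2 and 3 and at 562, 667 and 449 CPM in cold. Thermoneutral library 3 stood far above its neighbours, and no cold library reached the thermoneutral range. The log2 fold change of −1.38 ± 0.43 missed the threshold (adjusted p = 0.0725). It was −0.63 and passed (adjusted p = 0.0327) without the libraries numbered 3, where 6509 of all genes passed in place of 1777. It also passed with DESeq2 (−1.35, adjusted p = 0.0193) and in the fit over 12 libraries (−1.43, adjusted p = 0.026), and its adjusted p over 20 alternatives ranged from 0.0193 to 0.194.

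In sWAT Adipoq stood at 851, 1030 and 1200 CPM at thermoneutrality and at 870, 783 and 848 CPM in cold. The cold libraries lay near the lowest thermoneutral one, and the groups overlapped. The log2 fold change was −0.30 ± 0.32 (adjusted p = 0.447), and the difference between the responses was 1.13 ± 0.54 (adjusted p = 0.137). The level did not pass between the tissues either, with 0.55 ± 0.38 at 30 °C (adjusted p = 0.225) and −0.58 ± 0.38 at 4 °C (adjusted p = 0.378), and the value at 30 °C was −0.04 without BAT thermoneutral library 3.

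Retn (ENSMUSG00000012705.16, chromosome 8, 3655770 to 3660110, plus strand) encodes resistin. It stood at 98.6, 52.9 and 26.3 CPM in BAT thermoneutral libraries 1, 2 and 3, at 82.6, 79.1 and 23.4 CPM in BAT cold, at 264, 227 and 274 CPM in sWAT thermoneutral and at 369, 421 and 315 CPM in sWAT cold libraries. All sWAT libraries lay above all BAT libraries, and the libraries numbered 3 were the lowest in each BAT group. Retn was lower in BAT by −2.10 ± 0.49 at 30 °C (adjusted p = 0.00267) and by −2.58 ± 0.50 at 4 °C (adjusted p = 0.00374).

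Neither cold response of Retn passed. It was 0.12 ± 0.56 in BAT (adjusted p = 0.905), where leaving out a library turned its sign in 3 of 6 cases. In sWAT it was 0.53 ± 0.28 (adjusted p = 0.148), with all 3 cold libraries above all 3 thermoneutral ones.

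Apln (ENSMUSG00000037010.7, chromosome X, 48025146 to 48034853, minus strand) encodes the apelin precursor. In sWAT it stood at 3.05, 3.71 and 3.77 CPM at thermoneutrality and at 17.5, 8.88 and 11 CPM in cold, from 131 to 945 counts. Every cold library was well above every thermoneutral one, with cold library 1 the highest. The log2 fold change was 1.83 ± 0.33 (adjusted p = 0.00265), a 3.56-fold higher level, and it was called in all 19 alternatives, from 1.49 to 2.12. In BAT Apln stood at 5.76, 7.35 and 5.62 CPM at thermoneutrality and at 9.72, 6.56 and 9.78 CPM in cold, and the groups overlapped (0.53 ± 0.30, adjusted p = 0.270).

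The Apln response was higher in sWAT than in BAT by 1.35 ± 0.43 (adjusted p = 0.0341). This call was lost in 13 of 25 alternatives, with an adjusted p of up to 0.163, and the value was 0.79 without sWAT cold library 1 (adjusted p = 0.151). At 30 °C Apln was higher in BAT than in sWAT by 0.83 ± 0.30 (adjusted p = 0.0308), a call lost without any 1 of 6 libraries, with values from 0.66 to 0.90 and an adjusted p of up to 0.142. In cold the difference was −0.52 ± 0.30 (adjusted p = 0.30).

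Agt (ENSMUSG00000031980.9, chromosome 8, 124556534 to 124569706, minus strand) encodes angiotensinogen. In sWAT it stood at 27.6, 39.4 and 31.6 CPM at thermoneutrality and at 17.5, 10.4 and 13.7 CPM in cold. The groups did not overlap, and Agt fell by 1.24 on the log2 scale (−1.24 ± 0.28, adjusted p = 0.00676), a call that was lost with the GC offset described below (−0.50, adjusted p = 0.237). In BAT it stood at 4.38, 2.83 and 1.57 CPM at thermoneutrality and at 9.27, 6.29 and 3.23 CPM in cold, from 67 to 209 counts. Library 3 was the lowest in both BAT groups, and the groups overlapped.

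The BAT value of Agt was 1.16 ± 0.49 (adjusted p = 0.153). Without the libraries numbered 3 it hardly moved, at 1.17 (adjusted p = 0.00644), while 6509 of all genes were called in place of 1777. Each BAT cold library lay above the thermoneutral library of the same number. With that number as a block the value passed, as given below, but what the number marks is not stated. The responses differed by −2.35 ± 0.58, sWAT minus BAT (adjusted p = 0.0121), and this was called in all 25 alternatives, from −2.88 to −1.54. At 30 °C Agt was lower in BAT by −3.50 ± 0.45 (adjusted p = 3.32e-05), or 11.3-fold. At 4 °C the value was −1.15 ± 0.41 (adjusted p = 0.0893), although no BAT library reached the sWAT range.

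Cfd (ENSMUSG00000061780.6, chromosome 10, 79890853 to 79892655, plus strand) encodes adipsin. In sWAT it stood at 9090, 10300 and 5930 CPM at thermoneutrality and at 2500, 5080 and 3860 CPM in cold. The groups did not overlap, but thermoneutral library 3 and cold library 2 lay near each other. Cfd fell by 1.15 on the log2 scale (−1.15 ± 0.42, adjusted p = 0.0491). This call was lost in 13 of 19 alternatives, among them the GC offset (−0.28, adjusted p = 0.514) and 5 of the 6 that leave out a library (−1.38 to −0.93, adjusted p up to 0.154).

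In BAT Cfd stood at 1740, 1340 and 1080 CPM at thermoneutrality and at 1590, 1290 and 151 CPM in cold. Cold library 3, the library with the highest mitochondrial share, was far below the other 5, which overlapped. The log2 fold change was −0.40 ± 0.68 (adjusted p = 0.734), and without cold library 3 it was 0.12 (adjusted p = 0.808). At 30 °C Cfd was lower in BAT than in sWAT by −2.61 ± 0.66 (adjusted p = 0.00434), or 6.09-fold. In cold the value was −1.92 ± 0.64 (adjusted p = 0.0712), with no overlap between the tissues.

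Rbp4 (ENSMUSG00000024990.13, chromosome 19, 38116629 to 38125281, minus strand) encodes the retinol carrier of the blood. In sWAT it stood at 308, 246 and 171 CPM at thermoneutrality and at 108, 94.1 and 114 CPM in cold. The cold libraries lay close together and below all thermoneutral ones, and Rbp4 fell by 1.20 on the log2 scale (−1.20 ± 0.30, adjusted p = 0.0107), a call that was lost with the GC offset (−0.52, adjusted p = 0.145). In BAT it stood at 96.9, 89.3 and 37.0 CPM at thermoneutrality and at 58.8, 48.9 and 27.0 CPM in cold, and thermoneutral library 3 lay within the cold range. The BAT value was −0.67 ± 0.42 (adjusted p = 0.326), and −0.73 without the libraries numbered 3 (adjusted p = 0.0077). In that setting 6509 of all genes were called in place of 1777.

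The Rbp4 and Cfd responses did not pass for a difference between the tissues (Rbp4 −0.47 ± 0.53, adjusted p = 0.540, and Cfd −0.69 ± 0.88, adjusted p = 0.591). Rbp4 was lower in BAT than in sWAT by −1.70 ± 0.39 at 30 °C (adjusted p = 0.00217). In cold it was at −1.23 ± 0.38 (adjusted p = 0.0525), a value that passed in 10 of 25 alternatives.

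Nampt (ENSMUSG00000020572.8, chromosome 12, 32819545 to 32853349, plus strand) encodes the rate-limiting enzyme of NAD salvage. In sWAT it stood at 20.3, 29.6 and 20.3 CPM at thermoneutrality and at 199, 233 and 246 CPM in cold. The 2 groups were far apart, and Nampt rose 9.66-fold (log2 fold change 3.27 ± 0.28, adjusted p = 0.000218). Nampt was called in all 19 alternatives, at 1.89 to 3.45, and its value was smaller with the GC offset described below. In BAT it stood at 315, 393 and 458 CPM at thermoneutrality and at 287, 260 and 420 CPM in cold, and the groups overlapped (−0.22 ± 0.30, adjusted p = 0.673).

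The Nampt response was higher in sWAT by 3.54 ± 0.41 (adjusted p = 0.00038). As tested this was the largest difference among the 8 members, but with the GC offset that of Lep was larger. At 30 °C Nampt was 16.6-fold higher in BAT than in sWAT (4.05 ± 0.32, adjusted p = 1.28e-06), and in cold the value was 0.51 ± 0.28 (adjusted p = 0.282). The value at 30 °C ran from 2.63 to 4.25 over 25 alternatives and was smaller with the GC offset. The annotated non-coding gene Gdap10 lies on the same strand within the Nampt locus, and how reads shared by both were counted is not given in the sources used here.

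Between the tissues, 6 of 8 members were called at 30 °C, 2 higher in BAT (Nampt and Apln) and 4 lower (Retn, Agt, Cfd and Rbp4), against 58.7% of 16365 genes (29.9% higher and 28.8% lower). In cold, 2 of 8 were called, both lower in BAT (Lep and Retn), against 12.3% of genes, of which 1.19% were higher and 11.1% lower. The median of the members was −1.10 at 30 °C and −1.19 in cold, beside 0.03 and −0.03 for all genes. These comparisons share libraries with the cold comparisons above.

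The sWAT responses of the members followed the order of their GC content in part. Agt, Cfd and Rbp4, the 3 members that fell, have the highest GC content of the 8, at 56.3%, 58.4% and 55.6%, and Nampt, which rose most, has the lowest, at 40.3%. When each library's trend of log2 CPM with GC content was taken out, none of the 3 was called in sWAT, with values from −0.52 to −0.28.

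Nampt and Apln were called with the GC offset too, Nampt at 1.90 (adjusted p = 0.00165) and Apln at 2.12 (adjusted p = 0.00236). With it the difference between the responses was 2.54 for Lep (adjusted p = 0.0115), 2.09 for Nampt (adjusted p = 0.0036), 1.66 for Apln (adjusted p = 0.0174) and −1.54 for Agt (adjusted p = 0.0368). At 30 °C the tissue differences of Agt (−2.76), Cfd (−1.64), Rbp4 (−1.0) and Nampt (2.63) were smaller with the offset and were still called. The offset removes any real change that follows GC content as well.

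**Figure D3:**
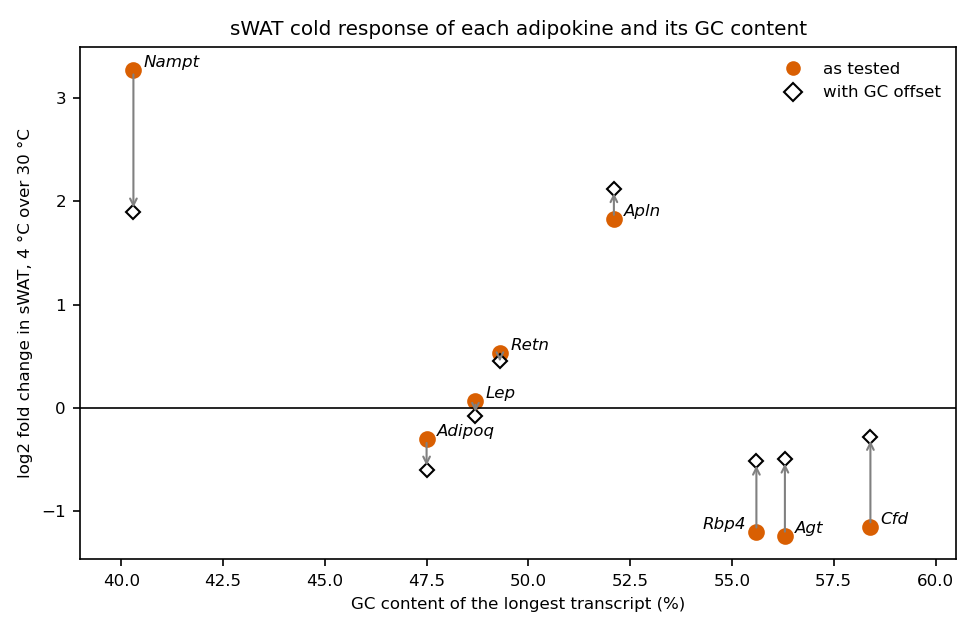
Log2 fold change in sWAT (4 °C over 30 °C) of each of the 8 adipokine genes against the GC content of its longest transcript in percent. Filled circles are the values as tested and open diamonds the values with the GC offset, joined by arrows. Nampt moved from 3.27 to 1.90, and Agt, Cfd and Rbp4 moved to between −0.52 and −0.28.

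Together the 8 genes took 1.55%, 1.82% and 1.40% of all counts in sWAT thermoneutral libraries 1, 2 and 3 and 0.430%, 0.609% and 0.520% in sWAT cold libraries. In BAT they took 0.308%, 0.252% and 0.490% at thermoneutrality and 0.198%, 0.184% and 0.0577% in cold. The cold shares lay below the thermoneutral shares in both tissues, with no overlap. The Wilson 95% interval, which covers counting error only, was 1.549% to 1.558% in sWAT thermoneutral library 1 and 0.05711% to 0.05837% in BAT cold library 3. In sWAT Cfd alone made up 76.6% to 85.8% of the members' counts at 30 °C and 58.7% to 76.0% at 4 °C. Mitochondrially encoded RNA is part of these totals and differed between the groups; without it the mean shares were 1.60% ± 0.217 and 0.694% ± 0.0573 in sWAT and 0.490% ± 0.0968 and 0.205% ± 0.0713 in BAT, at 30 °C and 4 °C (SD, n = 3).

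**Figure D4:**
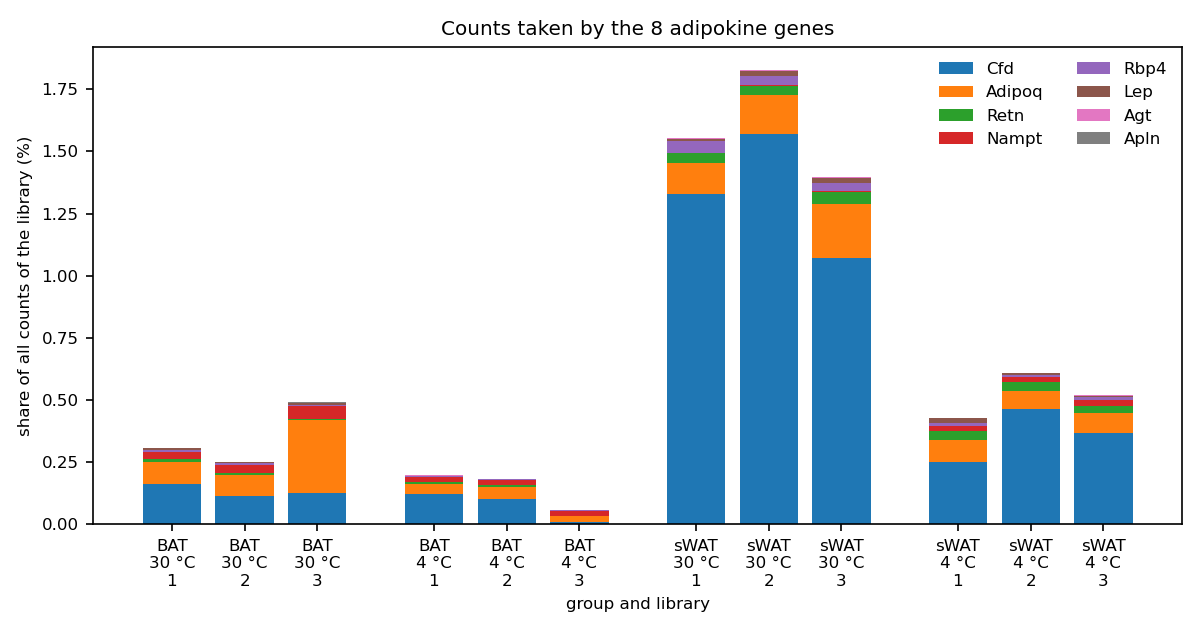
Share of all counts of a library (percent, linear axis from 0) taken by the 8 adipokine genes, stacked by gene, in the 12 libraries. The sWAT thermoneutral libraries reach 1.40% to 1.82%, most of it Cfd, and the other 9 libraries 0.0577% to 0.609%.

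The ratio of Lep to Adipoq counts within a library does not depend on its total or its scaling. There were 6.91, 6.58 and 2.75 Lep counts per 100 Adipoq counts in BAT thermoneutral libraries 1, 2 and 3 and 2.58, 1.61 and 1.58 in BAT cold libraries. In sWAT there were 6.53, 12.1 and 9.20 at thermoneutrality and 20.3, 6.51 and 8.83 in cold. All BAT cold libraries lay below all BAT thermoneutral ones, with thermoneutral library 3 just above, and the sWAT groups overlapped.

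On the log2 scale the ratio was lower in cold BAT by −1.42, with an exact two-sided permutation p of 0.1, the smallest that 3 against 3 libraries allow. In sWAT the value was 0.23 (exact permutation p = 0.9). Over both tissues, with labels exchanged within each tissue, it was −0.59 (exact permutation p = 0.185). Without sWAT cold library 1 the sWAT value turned to −0.24 and that over both tissues was −0.83 (exact permutation p = 0.035). Of the values over both tissues with 1 library left out, this was the most negative.

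**Figure D5:**
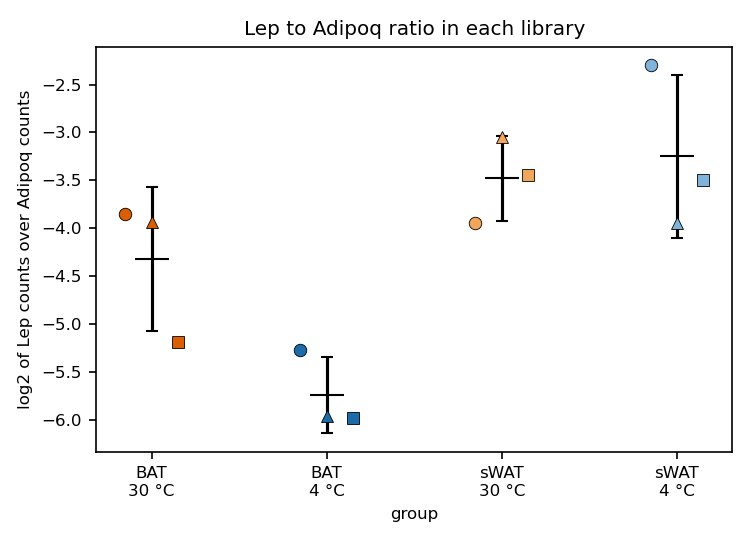
Log2 ratio of Lep to Adipoq counts (y axis) in each library of BAT and sWAT at 30 °C and 4 °C. Points are libraries 1 (circle), 2 (triangle) and 3 (square), long bars the group mean and short bars 1 SD, with n = 3. The BAT cold libraries lie at −5.98 to −5.27 and the other 9 at −5.19 to −2.30.

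Likeness between genes over the 12 libraries is a description, since the libraries share groups, depth differences and the composition given above. On log2 CPM, Cfd and Rbp4 followed each other most closely of the 28 pairs (Pearson r = 0.91), and Retn followed both Agt and Cfd (r = 0.84 each). Nampt ran opposite to Agt (r = −0.85) and Rbp4 (r = −0.84), while Lep and Adipoq had an r of 0.65.

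The search covered the 8468 genes whose log2 CPM averaged 3 or more and whose symbol is not that of a predicted gene model. Of these, the gene most like Lep was Hcar1, the lactate receptor of fat cells (r = 0.943), ahead of Apol6 (0.938). Most like Adipoq were Anxa8 (0.881) and Pspc1 (0.880), like Retn the mitochondrial carrier Slc25a10 (0.941) and Ifi27l2a (0.932), and like Apln Ermp1 (0.969) and the insulin receptor substrate Irs1 (0.949). Most like Agt were the amino acid transporter Slc7a10 and the lectin Lgals3 (0.971 each), like Cfd Fam213b (0.962) and Inmt (0.961), and like Rbp4 Entpd2 (0.979) and the class I histocompatibility gene H2-D1 (0.978). Nampt was most like Lyrm5 and the mitochondrially encoded mt-Cytb (0.993 each). mt-Cytb stood at 148 ± 44.7 CPM in sWAT at 30 °C and at group means of 25700 to 54800 CPM in the other groups, so this likeness carries the composition of the sWAT thermoneutral libraries.

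Genes around the adipokines were read from lists of receptors, processing partners, other secreted adipokines, transcriptional regulators, and adipocyte and beige markers. Of 13 receptor genes tested in BAT, 1 passed in cold (7.7%, against 12.2% of all genes, median 0.14). It was Insr, the insulin receptor, which rose by 1.51 ± 0.30 (adjusted p = 0.0170), a call lost without BAT cold library 2 or BAT thermoneutral library 1 or 2 (1.47 to 1.63, adjusted p up to 0.0715). In sWAT 5 of 15 passed and were higher (33.3%, against 49.2% of all genes called, median 0.68). They were led by Cdh13, the T-cadherin that binds adiponectin (1.79 ± 0.26, adjusted p = 0.000969), Insr (1.62 ± 0.24, adjusted p = 0.00104), the adiponectin receptor Adipor2 (1.19 ± 0.30, adjusted p = 0.0108) and Tlr4, a receptor of innate immunity (1.19 ± 0.40, adjusted p = 0.0350). The Tlr4 call was lost without any 1 of sWAT cold libraries 1 and 3 and thermoneutral libraries 1 and 2 (0.83 to 1.29, adjusted p up to 0.0915), and the gene was at −0.35 (adjusted p = 0.336) with the GC offset. The Adipor2 call was lost without thermoneutral library 2 (1.13, adjusted p = 0.0542).

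Lepr, the leptin receptor, had a low level, at 0.969 ± 0.353 and 0.332 ± 0.126 CPM in BAT at 30 °C and 4 °C and 1.49 ± 0.918 and 4.33 ± 3.78 CPM in sWAT (SD, n = 3). Its responses differed between the tissues by 3.06 ± 0.91 (adjusted p = 0.0265), one of 2 receptors called for the difference beside Cdh13 (1.35 ± 0.37, adjusted p = 0.0180). In cold Lepr was lower in BAT than in sWAT by −3.69 ± 0.69 (adjusted p = 0.00291), as was Stra6l, a receptor for Rbp4 (−3.18 ± 0.89, adjusted p = 0.0316). With the GC offset neither difference of responses was called, with 1.77 for Lepr (adjusted p = 0.119) and 0.63 for Cdh13 (adjusted p = 0.264). Without 1 library the Lepr difference was lost in 7 of 12 cases, BAT cold libraries 1 and 2, BAT thermoneutral libraries 1 and 3, sWAT cold library 1 and sWAT thermoneutral libraries 1 and 2, with 1.81 to 2.97 and an adjusted p of up to 0.09. That of Cdh13 was lost without BAT cold library 1 or 2, BAT thermoneutral library 1 or sWAT cold library 2 (1.04 to 1.23, adjusted p up to 0.101). Stra6l was at 0.0336 ± 0.0582 CPM in BAT and 0.336 ± 0.159 CPM in sWAT in cold, and its call was lost without 1 of 5 libraries, the cold libraries BAT 1, BAT 2 and sWAT 1 and the BAT thermoneutral libraries 1 and 2 (−3.04 to −2.42, adjusted p up to 0.163).

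Of 31 processing partners tested in BAT, 2 passed in cold, both higher (6.5%, against 12.2% of all genes, median 0.12). They were Furin, a protease that matures precursor proteins (1.97 ± 0.38, adjusted p = 0.0147), and C3, the complement protein on which the pathway of adipsin acts (1.52 ± 0.31, adjusted p = 0.0175). Without any 1 of BAT cold libraries 1 and 2 and BAT thermoneutral libraries 1 and 2 both calls were lost, with 1.76 to 2.17 for Furin (adjusted p up to 0.0657) and 1.34 to 1.62 for C3 (adjusted p up to 0.0867). In sWAT 9 of 33 rose and 7 fell (48.5% called, close to the 49.2% of all genes, median 0.29). Mme, neprilysin, which cuts small peptides, rose by 4.06 ± 0.33 (adjusted p = 0.000198). Cfp, properdin, which stabilises the convertase that adipsin forms, fell by 2.72 (SE 0.24, adjusted p = 0.000227). The mast cell chymase Cma1, which can form angiotensin, was at −2.08 ± 0.40 (adjusted p = 0.00346), and the collagen-modifying enzyme Plod3 at −1.21 ± 0.24 (adjusted p = 0.00403), or −0.34 with the GC offset (adjusted p = 0.221).

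For the difference of responses, 4 partners of 33 were positive and 3 negative (21.2% called, against 25.1% of all genes), led by Mme (3.53 ± 0.56, adjusted p = 0.00136), the nicotinamide riboside kinase Nmrk1 (1.86 ± 0.34, adjusted p = 0.00296, or 0.81 and adjusted p = 0.116 with the GC offset) and Cfp (−2.31 ± 0.45, adjusted p = 0.00371). The complement genes C4b and Cfb, the substrate of adipsin, were lower in BAT than in sWAT. At 30 °C C4b was at −4.88 ± 0.41 and Cfb at −5.27 ± 0.46, and in cold they were at −2.96 ± 0.38 (adjusted p = 0.000164) and −3.34 ± 0.43 (adjusted p = 0.000166). The part of other cell types in these tissue differences was not tested.

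Of 31 other secreted adipokines tested in BAT, 2 passed in cold, both lower (6.5%, against 12.2% of all genes, median −0.21). They were Nnat, neuronatin (−2.39 ± 0.40, adjusted p = 0.00931), and the fat cell lectin Lgals12 (−0.91 ± 0.24, adjusted p = 0.0419). Without any 1 of BAT cold libraries 1 and 2 and BAT thermoneutral libraries 1 and 2 the call of Lgals12 was lost (−0.94 to −0.82, adjusted p up to 0.187). In sWAT 6 of 33 rose and 15 fell (63.6% called, against 49.2% of all genes, median −1.03). Lipocalin 2, Lcn2, was at −3.78 ± 0.48 (adjusted p = 0.000614), C1qtnf5, a relative of adiponectin, at −3.51 ± 0.51 (adjusted p = 0.00103), the chemokine Ccl2 at −3.03 ± 0.46 (adjusted p = 0.00117) and Nnat at −2.15 ± 0.31 (adjusted p = 0.00102). The folds of Lcn2 and C1qtnf5 rest on few counts, 6 to 17 and 1 to 5 per cold sWAT library.

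For the difference, 4 of 34 were positive and 5 negative (26.5% called, against 25.1% of all genes), led by the adiponectin relatives C1qtnf6 (−2.51 ± 0.44, adjusted p = 0.00241) and C1qtnf9 (1.75 ± 0.43, adjusted p = 0.0110), Lcn2 (−3.43 ± 0.85, adjusted p = 0.0123) and Wisp2 (−3.04 ± 0.76, adjusted p = 0.0125). In cold Nnat (−3.24 ± 0.38) and Tnf (−3.31 ± 0.47, adjusted p = 0.000389) were lower in BAT than in sWAT. Counts per BAT library were low, at 2 to 28 for Lcn2, 5 to 17 for Wisp2 and, in cold, 7 to 13 for Tnf.

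Markers of other cell types were counted in the sWAT comparison, where 49.2% of all genes were called. Macrophage markers summed to 817 to 1390 CPM in sWAT at 30 °C and 264 to 421 CPM at 4 °C, and 6 of 10 fell and 1 rose. B and T lymphocyte markers summed to 730 to 936 and 178 to 526 CPM, with 6 of 11 lower, and fibroblast markers to 2870 to 4520 and 1030 to 1580 CPM, with 3 of 9 lower. Skeletal muscle markers summed to 114 to 4680 and 7380 to 20200 CPM, with 7 of 10 higher. Endothelial markers summed to 256 to 426 and 475 to 612 CPM, with 5 of 9 higher, and of 7 neutrophil and mast cell markers 2 were lower. Markers of hepatocytes, the liver cells that make most circulating Agt and Rbp4, summed to at most 28.1 CPM in any library, with Ttr, Fgb and Ahsg at 0 in all cold libraries. Between the tissues, all 11 B and T lymphocyte markers were lower in BAT at both temperatures. Of all genes, 58.7% were called at 30 °C and 12.3% at 4 °C. In BAT these 11 markers summed to 6.72 to 9.46 CPM at 30 °C and 3.28 to 5.24 CPM at 4 °C. Of 10 macrophage markers, 8 were lower in BAT at 30 °C and 5 at 4 °C. Of 9 endothelial markers, 6 and 3 were higher. The part of these cells in the changes of the adipokines and in the tissue differences was not tested. In bulk tissue, fewer cells of a type and less RNA per cell cannot be told apart.

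Of 25 regulators tested in BAT, 4 rose and 3 fell in cold (28.0% called, against 12.2% of all genes, median 0.54). The clock genes Arntl (2.92 ± 0.37, adjusted p = 0.00360) and Nr1d1 (1.38 ± 0.31, adjusted p = 0.0247) rose, and the immediate early factors Egr2 (−2.77 ± 0.42, adjusted p = 0.00716) and Egr1 (−2.05 ± 0.33, adjusted p = 0.00813) fell. The Nr1d1 call was lost with the GC offset (1.26, adjusted p = 0.0538) and without any 1 of BAT cold libraries 1 and 2 and BAT thermoneutral libraries 1 and 2 (1.18 to 1.44, adjusted p up to 0.112). In sWAT 11 of 25 rose and 4 fell (60.0% called, against 49.2% of all genes, median 0.61). The master regulator of fat cells Pparg rose by 2.33 ± 0.27 (adjusted p = 0.000437), Ebf2 by 1.99 ± 0.27 (adjusted p = 0.000735), Ebf1 by 1.70 ± 0.28 (adjusted p = 0.00177) and Nfe2l2 by 1.53 ± 0.25 (adjusted p = 0.00153).

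Arntl (−2.79 ± 0.44, adjusted p = 0.00136), Ebf2 (1.83 ± 0.38, adjusted p = 0.00546), Pparg (1.71 ± 0.40, adjusted p = 0.00846) and Egr1 (1.91 ± 0.47, adjusted p = 0.0112) led the 12 of 25 regulators whose responses differed between the tissues (48.0%, against 25.1% of all genes, 8 positive and 4 negative, median 0.35). Egr1 was no longer called when BAT cold library 1 (1.60, adjusted p = 0.0661) or 2 (1.75, adjusted p = 0.0538) was left out.

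Of 15 adipocyte genes in BAT, 3 passed and were higher (20.0% called, against 12.2% of all genes, median 0.85), namely Gpd1 (2.90 ± 0.35, adjusted p = 0.00314), Lpin1 (2.00 ± 0.30, adjusted p = 0.00634) and the fatty acid receptor Ffar4 (1.90 ± 0.40, adjusted p = 0.0204). The Ffar4 call was lost without any 1 of BAT cold libraries 1 and 2 and BAT thermoneutral libraries 1 and 2 (1.57 to 1.98, adjusted p up to 0.085). In sWAT 7 rose and 1 fell (53.3% called, against 49.2% of all genes, median 1.11), led by the fatty acid transporter Cd36 (3.85 ± 0.41, adjusted p = 0.000367), Acvr1c (2.17 ± 0.29, adjusted p = 0.000799), the fatty acid binding protein Fabp4 (3.59 ± 0.55, adjusted p = 0.00128) and Lpin1 (1.92 ± 0.35, adjusted p = 0.00278). Of the brown and beige markers, 7 of 12 rose in BAT (58.3%), among them Elovl3 (7.10 ± 0.36, adjusted p = 0.000143) and Ucp1 (3.56 ± 0.38, adjusted p = 0.00190). In sWAT 9 of 11 rose (81.8%), among them Dio2 (7.79 ± 0.52, adjusted p = 0.000174) and Ppargc1a (5.98 ± 0.48, adjusted p = 0.000198). Between BAT and sWAT in cold, Gpd1 (1.20 ± 0.46, adjusted p = 0.112), Ucp1 (1.23 ± 0.69, adjusted p = 0.290) and Cidea (0.99 ± 0.45, adjusted p = 0.179) did not pass. Gpd1 passed with DESeq2 (1.29, adjusted p = 0.0125) and with the GC offset (1.3, adjusted p = 0.0458).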

How the data were processed

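RNA from BAT and sWAT was sequenced as total RNA with Illumina TruSeq libraries from 1000 ng and 100 nt paired reads, per the labels' protocols. The table deposited by the authors holds whole-number raw counts for each gene, not normalized. STAR, DESeq2 and the mm10 build are named, without versions, per the submitters' processing notes. For the counting tool, the strand setting and the annotation, nothing is given in the sources used here. Library 1 of cold BAT and library 2 of cold sWAT have column names that call them merged, and what was merged is not stated. All 12 columns matched a sample, 0 were left without one, and no 2 libraries were duplicates.

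The counts were tested with edgeR 4.0.16, which rests on limma 3.58.1, under R 4.3.3, after filterByExpr and TMM scaling, with glmQLFit (robust=TRUE), glmQLFTest and Benjamini-Hochberg adjustment over all genes tested, at 0.05 with no minimum fold. Temperatures were compared within the 6 libraries of a tissue. The difference of responses and the comparisons of tissues used 1 fit over 12 libraries with 4 group means. SE is the log2 fold change divided by the square root of F. Printed CPM are scaled by TMM factors over 12 libraries. The exact permutation test of the Lep to Adipoq ratio added 0.5 to each count. The script was tested on simulated counts.

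Positions, lengths and GC content came from GENCODE M21 (GRCm38), which matched 22240 symbols (96.0%), and promoters from RefSeq, where all 8 members matched. Named genes were the 8 members, from each list up to 4 genes with the smallest adjusted p past the threshold (up to 2 between tissues, or up to 2 of the highest mean CPM where none passed), and for each member the 2 genes with the highest Pearson r on log2 CPM (prior count 2). A gene that the rule takes is not reported here. The members and lists were chosen with earlier results of these data known. Alternatives were RLE and upper quartile scaling, no mitochondrially encoded genes, no filter, at least 1 CPM in 3 libraries or more, a fit with robust=FALSE, DESeq2 1.42.0, limma-voom, a 2-fold minimum, a replicate block, a GC offset (lowess, span 0.3), both together, the 12-library fit and leaving out each library. Leaving out both BAT libraries numbered 3 was added after the data were seen.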

Additional observations from a re-analysis of the deposited data

Results flagged for a closer look

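The cold response of 4 adipokine genes differed between the tissues by the test of the difference itself, in edgeR's quasi-likelihood fit over 12 libraries. That was 4 of 8 members, against 25.1% of 16365 genes (17.3% positive and 7.85% negative). For Lep, sWAT minus BAT was 2.71 ± 0.62 (adjusted p = 0.00803), with all 3 BAT cold libraries below all 3 BAT thermoneutral libraries and no order in sWAT. For Nampt it was 3.54 ± 0.41 (adjusted p = 0.00038), with all 3 sWAT cold libraries above the thermoneutral ones and an overlap in BAT. For Apln it was 1.35 ± 0.43 (adjusted p = 0.0341), with higher levels in 3 of 3 sWAT cold libraries; this call was lost in 13 of 25 alternatives (adjusted p up to 0.163), and the value was 0.79 without sWAT cold library 1. For Agt it was −2.35 ± 0.58 (adjusted p = 0.0121), with lower levels in 3 of 3 sWAT cold libraries. The sWAT fall of Agt was not called with the GC offset, and the Nampt difference was smaller with it. All 4 differences use the sWAT thermoneutral libraries, whose composition cannot be told apart from temperature.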

How the results depend on the processing

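Lep in BAT, Nampt and Apln in sWAT, and the differences of responses of Lep, Agt and Nampt were called in all alternatives run. Over 20, 19 and 25 alternatives in the 3 cold comparisons the range was −2.86 to −2.35 for Lep in BAT, 1.89 to 3.45 for Nampt in sWAT and 1.82 to 2.93 for the difference of Lep. Members lower in cold BAT numbered 2 with upper quartile scaling, DESeq2, the GC offset and the fit over 12 libraries, in place of 1. Without both BAT libraries numbered 3 there were 3 lower and 1 higher, in place of 1 and 0. That setting was added after the data were seen, and it called 6509 of all genes in place of 1777. With the GC offset, alone or with the block, 0 members were lower in cold sWAT in place of 3. Members higher in BAT at 30 °C numbered 1 in place of 2 without the filter and at a 2-fold minimum, and 1 to 2 when a library was left out. Members lower in BAT in cold numbered 4 with DESeq2 and limma-voom and 5 with the GC offset in place of 2. Mean shares without mitochondrially encoded genes were 0.490% in place of 0.350% in BAT at 30 °C and 0.694% in place of 0.520% in sWAT at 4 °C.

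Signs that turned belonged to values that were not called, save that of Tlr4. Retn in BAT was −0.06 with upper quartile scaling and −0.24 to 0.66 without 1 library, and Cfd in BAT −0.87 to 0.12. Lep in sWAT was −0.09 with limma-voom, −0.08 with the GC offset and −0.62 to 0.41 without 1 library. With the GC offset Tlr4 in sWAT was −0.35, and the differences of Cfd and Rbp4 were 0.41 and 0.26. Without 1 library the difference of Retn was −0.25 to 0.84, and the tissue differences were −0.04 to 0.82 for Adipoq at 30 °C, −0.60 to 0.02 for Apln in cold and −0.11 to 0.23 for Fabp4 in cold. Without both BAT libraries numbered 3 that of Adipoq was −0.04 and that of Fabp4 0.02. The Lep to Adipoq ratio was −0.24 to 0.58 in sWAT, with 0.00 without sWAT thermoneutral library 1, and −0.83 to −0.42 over both tissues. The causes were not tested.

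The sample titles give each library an experiment number that recurs in all groups, without saying what it marks. Whether it marks the same mice in BAT and sWAT is not stated either. The correlation of deviations of same-numbered BAT libraries was 0.306, 0.067 and 0.289, and of sWAT libraries −0.231, 0.187 and −0.312. Between BAT and sWAT it was −0.468, 0.531 and −0.297 in cold and 0.015, 0.221 and 0.070 at thermoneutrality. For cold and thermoneutral libraries of different numbers the correlation was −0.38 to 0.239 in BAT and −0.419 to 0.457 in sWAT. Not every same-numbered value was above 0.1, so the numbers were not taken as pairs. With the replicate number as a block, Agt in BAT was 1.15 (adjusted p = 0.0252), so 1 member was higher, also with the GC offset (1.07). Members lower in BAT in cold numbered 5. Cfd in sWAT was not called (−1.17, adjusted p = 0.117), nor was the difference of Apln (1.30, adjusted p = 0.0731), and Lep in sWAT was −0.11. With block and GC offset together Lep in sWAT was −0.25, Tlr4 −0.37, and the differences of Cfd and Rbp4 0.70 and 0.22, and in sWAT Ebf1 (0.69, adjusted p = 0.0652) and Nnat (−1.27, adjusted p = 0.06) were not called.

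Counts of all called genes ranged from 451 (without BAT cold library 2) to 6509 (without both BAT libraries numbered 3) around 1777 in BAT, from 2419 to 5498 around 4108 for the difference and from 1100 to 2730 around 2015 between tissues in cold. The lowest count of a member in a library was 67, for Agt.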
